A study of Mus musculus with 16 samples.

Results

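The 10 genes described here are markers of the endothelial cells that form the blood-brain barrier: Cldn5, Ocln, Pecam1, Cdh5, Slc2a1, Mfsd2a, Abcb1a, Flt1, Kdr and Tek. They were chosen by gene symbol from the 21878 mRNAs of the count and FPKM tables, and all 10 were found and tested. Per the labels and the study's methods, microglia with the surface phenotype CD11b+/CD45int were sorted from mouse brains. The 16 mice were wild-type (WT) female C57BL/6 mice that were 8 weeks old, each giving 1 RNA-seq library. The 8 mice with experimental autoimmune encephalomyelitis (EAE) had been immunized with a peptide of myelin oligodendrocyte glycoprotein (MOG) in complete Freund's adjuvant and had received pertussis toxin. The 8 PBS-treated mice, the controls, received PBS injections in the same way, so the adjuvant, the toxin and the peptide differ between the groups together and their effects cannot be told apart. Brains were taken 14 days after induction, when disease was most severe. A library is named by its group and replicate number, such as EAE 4 or PBS 6.

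The blood-brain barrier is made by endothelial cells that are sealed by tight and adherens junctions, carry few vesicles, import nutrients through dedicated transporters and return many drugs to the blood. Wnt ligands from neural cells, together with contact with pericytes and astrocyte endfeet, induce and keep this state, and VEGF and angiopoietin receptors on the same cells govern vessel growth and stability. EAE is a model of multiple sclerosis in which leukocytes enter the central nervous system and the barrier is known to become leaky.

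Of the 10 genes, 0 were called higher and 0 lower in EAE mice than in the controls. A call was an adjusted p under 0.05 in edgeR's quasi-likelihood test, which 2.42% of the 17885 mRNAs tested reached, 0.66% as higher and 1.76% as lower. Mfsd2a, the lipid transporter, came nearest, with a log2 fold change (log2FC, EAE minus PBS) of −0.44 (SE 0.12, adjusted p = 0.0579). Cldn5, Cdh5, Kdr, Ocln and Tek had log2FC values above 0 and Pecam1, Slc2a1, Abcb1a, Flt1 and Mfsd2a below 0. The median over the 10 genes was 0.02, beside 0.01 over all mRNAs tested.

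Neither the labels nor the sorting gate names endothelial cells, so the level of these genes was set beside the markers of other cell types. In every library all 10 genes were present, with at least 163 counts (Ocln). The FPKM (reads scaled to the length of the gene and the depth of the library) summed over the 10 genes was 103 to 147 in EAE mice and 93.1 to 142 in the controls. Summed over 19 microglia markers it was 235 to 386 and 216 to 361, respectively, and over 15 neuron markers 1926 to 2356 and 2317 to 2591, respectively. The sum was 1318 to 2005 in EAE mice and 1549 to 1834 in the controls for 12 astrocyte markers. Markers of cells outside the gate were thus read at high levels in libraries labelled as microglia. Of the microglia markers, Tmem119 was at 8.44 ± 2.57 FPKM (SD, n = 8) in EAE mice and 7.44 ± 3.12 in the controls. In bulk libraries such as these, fewer endothelial cells and less of an mRNA per cell cannot be told apart.

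The upstream sequences of 4 of these genes are shown because Slc2a1 and Flt1 varied together most closely over the libraries, Mfsd2a came nearest to a call between the groups, and Cldn5 differed most between subsets of libraries. They were taken from RefSeq on GRCm38.p6, which held a window for 8 of the 10 genes, and end at the base before the gene. Capitals mark matches, on either strand, to 4 motifs of 6 letters: AGGAAG and CGGAAG, the core of sites of ETS factors, which include endothelial regulators; CTTTGA, a core of sites of the TCF/LEF factors of Wnt signalling; and GGGCGG, the GC box.
Slc2a1, chr4:119108495-119108710, plus strand: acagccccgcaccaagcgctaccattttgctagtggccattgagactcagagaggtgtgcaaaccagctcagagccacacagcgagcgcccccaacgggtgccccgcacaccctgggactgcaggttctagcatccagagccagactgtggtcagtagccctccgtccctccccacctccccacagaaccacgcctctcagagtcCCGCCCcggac
Flt1, chr5:147726012-147726261, minus strand: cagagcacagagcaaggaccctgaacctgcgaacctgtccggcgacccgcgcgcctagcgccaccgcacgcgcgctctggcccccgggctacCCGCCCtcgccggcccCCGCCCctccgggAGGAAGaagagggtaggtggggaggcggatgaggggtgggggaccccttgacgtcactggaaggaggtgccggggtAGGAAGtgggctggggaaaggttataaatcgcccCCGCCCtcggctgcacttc
Mfsd2a, chr4:122961189-122961438, minus strand: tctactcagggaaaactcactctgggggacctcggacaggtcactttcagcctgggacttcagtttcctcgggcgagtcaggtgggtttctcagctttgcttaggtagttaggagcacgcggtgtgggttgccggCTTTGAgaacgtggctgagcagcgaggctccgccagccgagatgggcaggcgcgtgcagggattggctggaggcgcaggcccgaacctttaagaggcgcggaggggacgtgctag
Cldn5, chr16:18776597-18776846, plus strand: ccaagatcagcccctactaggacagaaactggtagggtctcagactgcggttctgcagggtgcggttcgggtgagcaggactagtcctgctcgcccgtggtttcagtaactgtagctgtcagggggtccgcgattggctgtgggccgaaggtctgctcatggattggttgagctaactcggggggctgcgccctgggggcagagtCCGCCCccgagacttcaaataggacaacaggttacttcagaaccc

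The Slc2a1 window held the GC box at 45 and 20 bases before the RefSeq start, of which the nearer lies in the 34 bases left out here because GENCODE places them inside the gene. In the Flt1 window, AGGAAG began at 129 and 53 bases and the GC box at 158, 142 and 19 bases before the start. Mfsd2a had 1 match, to CTTTGA, at 115 bases, and Cldn5 had 1 match, to the GC box, at 45 bases. Of 27025 RefSeq windows of 250 bases, 29.2% held AGGAAG, 13.8% CGGAAG, 14% CTTTGA and 32.9% the GC box, so each match is of a common kind. Slc2a1 and Flt1 shared the GC box and no other of these motifs.

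The levels of the 10 genes, per length, spanned a wide range. Slc2a1 was the highest at a mean of 56.2 FPKM over the 16 libraries, followed by Mfsd2a at 18.4, Cldn5 at 16.2, Flt1 at 8.87, Cdh5 at 6.60, Abcb1a at 3.67, Pecam1 at 3.63, Tek at 2.30, Kdr at 1.91 and Ocln at 1.47. Slc2a1 exceeded Mfsd2a in 16 of 16 libraries and Cldn5 exceeded Flt1 in 16 of 16. Mfsd2a exceeded Cldn5 in only 9 of 16 and Abcb1a exceeded Pecam1 in 10 of 16, so the order of these neighbours was not steady over libraries. The mean of Mfsd2a was below that of Cldn5 in EAE mice (15.9 and 17.3 FPKM) and above it in the controls (20.8 and 15.1). These differences in level were not tested. Tek over Kdr and Kdr over Ocln each held in 12 of 16 libraries. The relative spread also differed between genes. Abcb1a was the steadiest, with a highest library 1.49 times its lowest, and Cdh5 varied most, at 3.36 times.

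**Figure D1:**
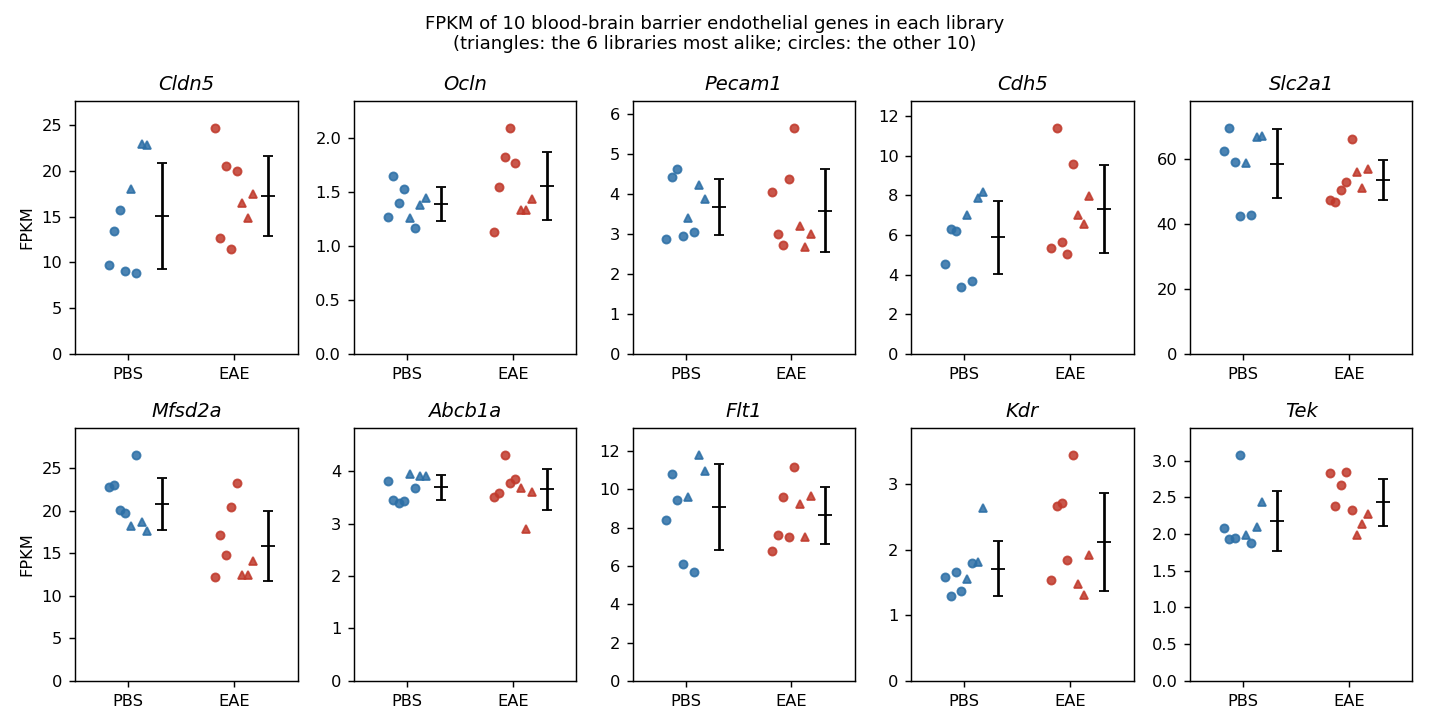
FPKM of each gene in the 8 PBS (blue) and 8 EAE (red) libraries, with the mean and SD of each group beside the points; every axis starts at 0, and triangles are the 6 libraries most alike. The groups overlap for all 10 genes, and for Mfsd2a 6 of 8 EAE libraries lie below the PBS median of 19.9.

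Cldn5, the main tight junction strand protein of brain endothelium, lies at chr16:18776847-18778262 (GRCm38). Its FPKM was lowest at 11.5, had a median of 17.0 and was highest at 24.7 in EAE mice. In PBS-treated mice it was 8.82 at the lowest, 14.6 at the median and 22.9 at the highest. The ranges overlapped almost fully, and in the PBS group the 2 highest libraries, PBS 7 and PBS 8, were more than 2 times PBS 1, PBS 4 and PBS 6. The log2FC was 0.14 (SE 0.20, 95% interval −0.27 to 0.55).

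Ocln encodes occludin, a second strand protein that steadies tight junctions. It ranged from 1.13 to 2.09 FPKM in EAE mice (median 1.49) and from 1.16 to 1.64 in the controls (median 1.39), with a log2FC of 0.11 (SE 0.12). EAE 4 was the highest and EAE 1 the lowest of all 16 libraries. The SD was 0.317 in EAE mice and 0.156 in the PBS group, a difference that was not tested.

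Pecam1 (CD31) is an adhesion receptor of endothelial borders that is also found on some leukocytes and platelets. Its FPKM ran from 2.66 to 5.64 in EAE mice with a median of 3.10, and from 2.88 to 4.62 in the controls with a median of 3.63. EAE 5 stood highest and the remaining EAE libraries lay within or below the PBS range. Its log2FC was −0.09 (SE 0.15, 95% interval −0.40 to 0.22).

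Cdh5, VE-cadherin, is the cadherin of endothelial adherens junctions. In EAE mice the lowest, median and highest FPKM were 5.02, 6.79 and 11.4. In PBS-treated mice they were 3.39, 6.25 and 8.17. EAE 2 and EAE 5 exceeded every PBS library, while the other 6 EAE libraries lay within the PBS range. The log2FC was 0.26 (SE 0.19, 95% interval −0.13 to 0.65).

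Among the transporters, Slc2a1 encodes GLUT1, through which glucose crosses the barrier, and astrocytes hold a form of it too. Slc2a1 ranged from 47.0 to 66.4 FPKM in EAE mice (median 52.1) and from 42.5 to 69.7 in the controls (median 61.0). Only EAE 5 lay above the PBS median, yet PBS 4 and PBS 6 were the 2 lowest of the 16 libraries. The log2FC was −0.18 (SE 0.10, 95% interval −0.39 to 0.02, adjusted p = 0.358 in the edgeR test). Exon bases of Slc2a1 (chr4:119108711-119137983) overlap an antisense gene, Gm12868, and since the strand setting of the counting is not given in the sources used here, reads of that gene may be included.

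Mfsd2a carries lysophosphatidylcholine with docosahexaenoic acid into the brain and restrains vesicle transport across brain endothelium. It lies at chr4:122946850-122961188. In EAE mice its FPKM was 12.2 at the lowest, 14.5 at the median and 23.3 at the highest. In PBS-treated mice it was 17.7 at the lowest, 19.9 at the median and 26.6 at the highest. EAE 1, 2, 3, 6, 7 and 8 were below every PBS library, and EAE 4 and EAE 5 lay inside the PBS range. The log2FC of −0.44 had a 95% interval of −0.70 to −0.19 and an unadjusted p of 0.00158 in the edgeR test, the only 1 of the 10 under 0.05, where 17.4% of all mRNAs were. A share of 1 in 10 is below that of the whole table.

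The call on Mfsd2a depended on the test. Of 11 alternative fits that kept all 16 libraries, 4 called it lower in EAE mice. These were DESeq2, edgeR's exact test, a model with replicate number as a block and a model with a term for the libraries most alike. Adjusted p-values over the 11 ran from 0.0126 to 0.0943. No label states that replicate numbers pair the samples, and the libraries most alike were picked from these data. The block and the term thus have no basis in the design as labelled. These 4 fits called 3.73%, 2.71%, 2.05% and 2.94% of mRNAs lower, in that order. Leaving out 1 library at a time, it was called in 2 of 16 edgeR fits. Its adjusted p was 0.00783 without EAE 5 and 0.0169 without EAE 4, the 2 highest EAE libraries, in fits that called 3.42% and 4.57% of mRNAs lower, and reached 0.130 without EAE 6. Its log2FC stayed between −0.54 and −0.39 in the 16 fits.

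Abcb1a encodes a P-glycoprotein, the efflux pump that keeps many drugs out of the brain. It had the narrowest interval of the 10, with a log2FC of −0.07 (SE 0.07, 95% interval −0.21 to 0.07). The FPKM was 2.90 to 4.31 in EAE mice (median 3.64) and 3.39 to 3.94 in the controls (median 3.74). The PBS libraries lay inside the EAE range. Its paralog Abcb1b, with which some reads could be shared, was at 2.74 ± 0.682 FPKM (SD, n = 8) in EAE mice and 2.56 ± 0.571 in the controls. The log2FC of Abcb1b was 0.05 (SE 0.15). Exon bases of Abcb1a (chr5:8660077-8748575) also overlap Gm42686, a gene on the opposite strand whose reads may be included for the same reason as in Slc2a1.

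Flt1 and Kdr encode VEGF receptors 1 and 2. Flt1 binds VEGF-A tightly but signals weakly, and Kdr carries most of the growth signal. Flt1 ranged from 6.79 to 11.2 FPKM in EAE mice (median 8.42) and from 5.71 to 11.8 in the controls (median 9.53), with a log2FC of −0.13 (SE 0.14). PBS 6 and PBS 4 were its 2 lowest libraries, as they were for Slc2a1. Kdr ranged from 1.30 to 3.45 FPKM in EAE mice (median 1.88) and from 1.29 to 2.64 in the controls (median 1.62), with a log2FC of 0.26 (SE 0.18, 95% interval −0.12 to 0.63). In FPKM, EAE 2, EAE 3 and EAE 5 were above all PBS libraries for Kdr, and EAE 6 and EAE 7 were near the lowest. In CPM (counts scaled as in the edgeR test, without gene length) only EAE 5, at 18.5, was above all PBS libraries. PBS 8 was at 14.59, EAE 3 at 14.57 and EAE 2 at 14.18. The related lymphatic receptor gene Flt4 was lower, at 0.966 ± 0.281 FPKM (SD, n = 8) in EAE mice and 0.923 ± 0.295 in the controls.

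Tek encodes TIE2, the receptor for angiopoietins. Its FPKM was 1.98 to 2.84 in EAE mice (median 2.35) and 1.88 to 3.08 in the controls (median 2.03). In 7 of 8 EAE libraries it was above the PBS median, but PBS 4 was the highest of all, and the log2FC was 0.11 (SE 0.11, 95% interval −0.11 to 0.33). Its partner Tie1 was at 1.29 ± 0.388 FPKM (SD, n = 8) and 1.37 ± 0.309, respectively, with a log2FC of −0.14 (SE 0.17). For none of the 10 genes were all libraries of one group above all of the other, a pattern that 0.101% of mRNAs had with EAE lower and 0.162% with EAE higher.

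The libraries were not equally alike, which bears on these genes. For pairs of libraries of a group, the median squared log ratio over mRNAs with at least 100 counts in both was divided by that of Poisson noise. It was 2.98 to 3.59 among EAE 6, EAE 7 and EAE 8 and 5.71 to 25.0 for the other EAE pairs, and 3.22 to 4.01 among PBS 5, PBS 7 and PBS 8 and 7.51 to 24.8 for the other PBS pairs. The labels name no batch. In the 6 libraries most alike, 3 per group, all 10 genes had a log2FC below 0, with a median of −0.29 beside 0.00 over all mRNAs. In these 6 libraries 6 genes were called lower and 0 higher, where 13.1% of mRNAs were called lower and 11% higher, and 7 had an unadjusted p under 0.05, where 35.5% did.

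Those 6 genes included junction, transporter and receptor genes, but not Cdh5, Ocln, Kdr or Tek. The 6 libraries were picked from these same data for their likeness within each group, which was not measured between the groups. Their p-values therefore describe these libraries and do not measure the spread between mice. Mfsd2a fell by 0.51 on the log2 scale (SE 0.07), Cldn5 by 0.41 (SE 0.09), Pecam1 by 0.40 (SE 0.10), Flt1 by 0.32 (SE 0.07), Slc2a1 by 0.26 (SE 0.05) and Abcb1a by 0.24 (SE 0.09), with adjusted p-values from 3.89e-06 to 0.0464 in edgeR's quasi-likelihood test. In the FPKM values, 5 of them (all but Flt1) had their 3 EAE libraries below their 3 PBS libraries, where 15.5% of mRNAs did, and 0 had them above, where 21.5% did. For Cldn5 the 3 EAE values ran from 14.9 to 17.5 FPKM and the 3 PBS values from 17.96 to 22.9. Mfsd2a ran from 12.4 to 14.1 and from 17.7 to 18.7, respectively.

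In the other 10 libraries, 5 per group, 0 of the 10 genes were called, beside 0.0458% of mRNAs called higher and 0.0286% lower, and 4 had an unadjusted p under 0.05, beside 10.8% of mRNAs. Their log2FC values were 0.58 for Cldn5 (SE 0.21), 0.55 for Cdh5 (SE 0.23), 0.60 for Kdr (SE 0.19) and −0.42 for Mfsd2a (SE 0.14). Cldn5 and Kdr thus lay on opposite sides of 0 in the 2 sets of libraries, and Mfsd2a on the same side. The difference between the sets was −1.001 on the log2 scale for Cldn5 (SE 0.30, adjusted p = 0.329 from the interaction term in edgeR), −0.99 for Kdr (SE 0.31, adjusted p = 0.343) and −0.10 for Mfsd2a (SE 0.20). None passed the adjustment, and the 3 genes with an unadjusted p under 0.05 (Cldn5, Kdr and Abcb1a) stand beside 8.03% of mRNAs. These sets were seen in the same data, so the contrast between them describes these libraries.

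**Figure D2:**
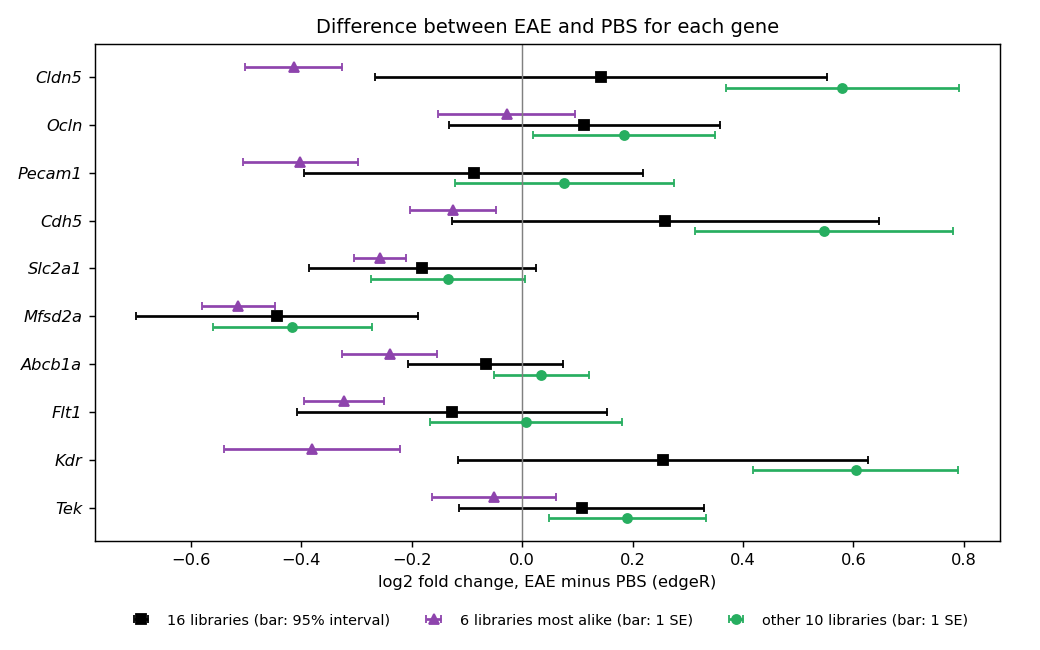
log2 fold change of each gene, EAE minus PBS, in edgeR's quasi-likelihood test over 16 libraries (black squares, 95% intervals), the 6 libraries most alike (purple triangles, 1 SE) and the other 10 (green circles, 1 SE). All 10 triangles lie below 0, while 8 of 10 circles lie above it, and Mfsd2a is near −0.4 to −0.5 in all 3.

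Across libraries the genes varied together only in part. After each gene was centred within its group, the 45 pairs had Pearson correlations of log2 CPM (counts scaled to library depth, without gene length) from −0.48 to 0.92, with a median of 0.33 and 36 above 0. Slc2a1 and Flt1 were the closest pair, with Pearson r = 0.92 and Spearman rho = 0.90 over 16 libraries (permutation p = 4e-05, adjusted p = 0.0018 over the 45 pairs for each). The correlation was 0.84 without PBS 6 and PBS 4, 0.83 within EAE mice, 0.96 within the controls and 0.92 when centred within each group and set of libraries. No other pair passed the adjustment. The next was Cdh5 with Flt1, at r = 0.74 and rho = 0.67 (permutation p = 0.00268 and 0.00898, adjusted p = 0.0603 and 0.202), which was 0.57 without PBS 4 and PBS 6.

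Flt1 also followed the mean of the other 9 genes most closely, at r = 0.78, followed by Slc2a1 at 0.70, Pecam1 at 0.59, Cdh5 and Kdr at 0.57, Abcb1a at 0.49, Cldn5 at 0.46 and Ocln at 0.39. Mfsd2a was at 0.10 and Tek at −0.14. When each gene was centred within its group and set of libraries, as described above, Mfsd2a was at 0.31, near Cldn5 at 0.32 and above Abcb1a at 0.22, while Tek was at −0.37. In the same way, the median r of the 9 pairs with Mfsd2a was 0.05 within groups and 0.27 within groups and sets, beside 0.34 and 0.25 for the 36 pairs without it. These values describe 16 libraries and share their depth and makeup. Mfsd2a and Cldn5 ran in opposite directions, at r = −0.48 and rho = −0.52 (permutation p = 0.0425 and 0.0258, adjusted p = 0.239 and 0.205).

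**Figure D3:**
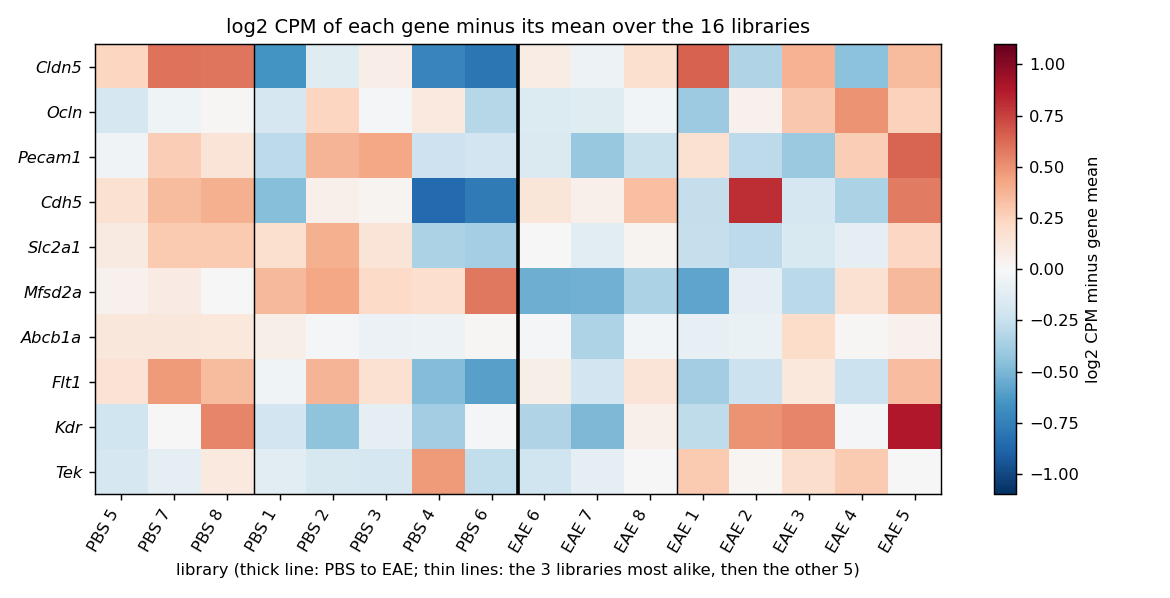
log2 CPM of each gene minus its mean over the 16 libraries, by library, with PBS on the left and EAE on the right of the thick line and, in each group, the 3 libraries most alike before the other 5. PBS 4 and PBS 6 are low in Cldn5, Cdh5, Slc2a1 and Flt1 but not in Mfsd2a, and EAE 5 is high in Pecam1, Cdh5 and Kdr.

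Beside other gene lists, the mean of the 10 genes followed the endothelial list closely. For 31 further endothelial genes, among them the factors Erg and Sox18 and the surface proteins Eng, Emcn and Cd34, Pearson's r was 0.97 and Spearman's rho 0.98 over 16 libraries, and r was 0.96 without EAE 5 and PBS 6. It was 0.94 (rho 0.89) for 17 genes of Wnt signalling at the barrier, 0.80 (rho 0.78) for 11 pericyte markers, 0.61 (rho 0.64) for 12 astrocyte markers and 0.59 (rho 0.60) for 9 smooth muscle markers. Without EAE 5 and PBS 6 these fell to 0.90, 0.69, 0.47 and 0.49, in that order. Over all 16 libraries the correlation was −0.04 for 19 microglia markers, −0.24 for 15 neuron markers and −0.14 for 12 oligodendrocyte markers. Without EAE 5 and PBS 6 these were −0.063, 0.057 and −0.19, in that order. Centred within group and set of libraries they were −0.42, −0.23 and −0.16. The other barrier lists followed less closely, at 0.60 for 17 junction partners, 0.44 for 17 VEGF and angiopoietin partners, 0.30 for 19 barrier transporters and receptors and 0.24 for 6 genes of caveolae and leakage. Centred within group and set, the value was −0.26 for the transporters and receptors. Without EAE 5 and PBS 6 it was 0.49 for junction partners, 0.48 for VEGF and angiopoietin partners, 0.23 for transporters and receptors and 0.089 for caveolae and leakage. Mfsd2a alone had r = 0.18 with the endothelial list, 0.76 with astrocyte markers, 0.74 with 7 red blood cell markers, 0.66 with oligodendrocyte markers and −0.54 with neuron markers. These values of Mfsd2a were not checked by rank or with libraries left out. All are descriptions over libraries that share depth and makeup, and the part of these cell types in the values of Mfsd2a was not tested.

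**Figure D4:**
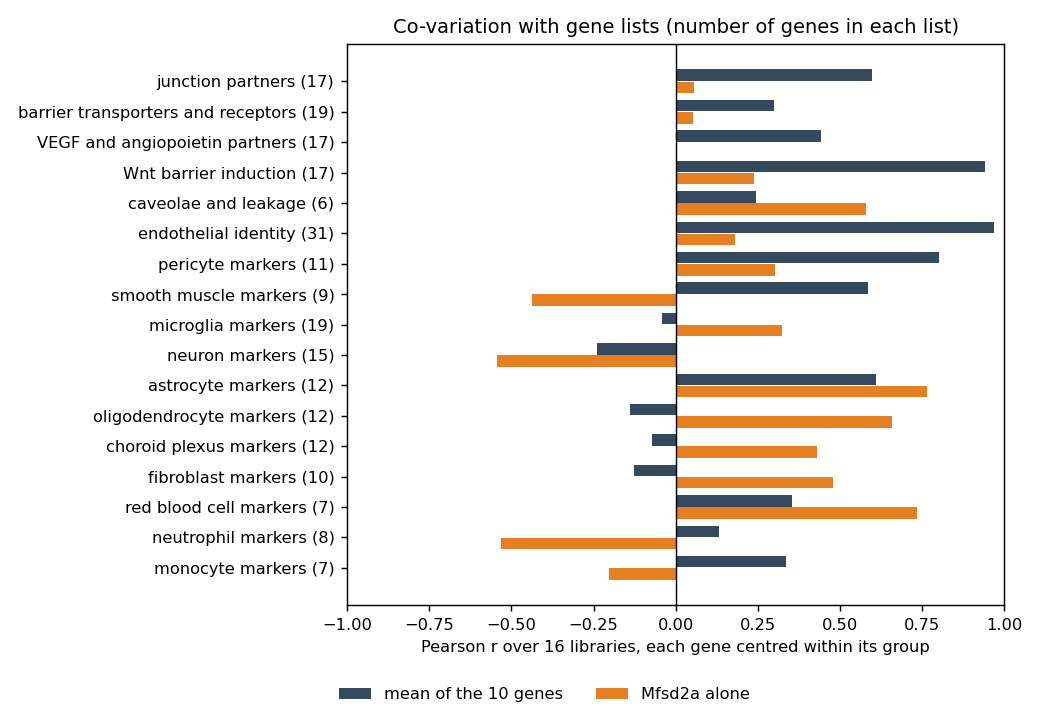
Pearson r over 16 libraries between the mean log2 CPM of each gene list and the mean of the 10 genes (dark bars) or Mfsd2a alone (orange bars), each gene centred within its group; the number of genes in a list is in brackets. The dark bars are longest for endothelial identity (0.97) and Wnt barrier induction (0.94), and the longest orange bar is that of astrocyte markers (0.76).

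The mRNAs most like the mean of the 10 genes, of 14749 with a mean of at least 1 CPM, were Tfcp2l1 (r = 0.89), Id1 (0.87), Hydin (0.86), Cdc14a (0.85), Rgs5 (0.84), Adgrg1 (0.84), Ptprb (0.84), Anp32e (0.83), Sash1 (0.83) and Dag1 (0.83). Of these 10, only Rgs5 and Ptprb were on the gene lists used here, and the mRNAs ranked above Rgs5 were on none. Rgs5 is a pericyte gene and Ptprb encodes VE-PTP, the endothelial phosphatase that acts on TIE2 and VE-cadherin. Adgrg1 and Dag1 were called lower, with a log2FC of −0.27 and −0.17 and an edgeR adjusted p of 0.0190 and 0.0293.

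The other genes of the barrier were counted in the same way. Of 112 genes on 6 related lists, all tested, 0 were called higher and 2 lower in EAE mice, and 11 had an unadjusted p under 0.05. Over all mRNAs tested, 0.66% were called higher, 1.76% lower, and 17.4% had an unadjusted p under 0.05. Jup, which encodes plakoglobin of adherens junctions and desmosomes, was 1 of 20 junction partners. It ranged from 6.66 to 8.87 FPKM in EAE mice (median 7.67) and from 7.60 to 10.4 in the controls (median 9.45), and fell by 0.31 in log2 units (SE 0.07), with an adjusted p of 0.0293 from edgeR. All 8 EAE libraries lay below the PBS median. The call was lost in 3 of 11 fits to all libraries and in 9 of 16 that left out 1 library, with adjusted p-values up to 0.0890 and 0.0670.

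Bsg encodes basigin, a chaperone of lactate transporters that is abundant on brain endothelium and present in many other cells. It was the 1 called of 32 endothelial identity genes. Bsg ranged from 85.6 to 131 FPKM in EAE mice (median 104) and from 118 to 136 in the controls (median 124), and fell by 0.31 in log2 units (SE 0.06), with an adjusted p of 0.0169 from edgeR. It was called in all 16 fits that left out 1 library and in 9 of 11 that kept all. EAE 4 was inside the PBS range, and the other 7 EAE libraries lay below it.

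The remaining lists held no call. Of 20 barrier transporters and receptors, Lrp1, an endocytic receptor that many brain cells hold, had a log2FC of −0.13 (SE 0.04, adjusted p = 0.0583) and the amino acid transporter gene Slc38a3 of −0.18 (SE 0.09). Of 17 VEGF and angiopoietin partners, the smallest p-values were those of the coreceptor gene Nrp2, with a log2FC of 0.07 (SE 0.05), and Notch1, with −0.10 (SE 0.08). Wnt7b, a Wnt ligand that induces the barrier, had a log2FC of −0.13 (SE 0.06) and its coreceptor gene Lrp5 of −0.17 (SE 0.09), of 17 genes on the Wnt list. Of 6 genes of caveolae and leakage, Cav2 had −0.15 (SE 0.12) and Ptrf 0.09 (SE 0.09). Cldn3, a paralog of Cldn5, was at 3 to 19 counts per library.

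Markers of neighbouring cells moved with the groups in part. Of 12 pericyte markers, 1 was called, Vtn, which fell by 0.47 in log2 units (SE 0.12, edgeR adjusted p = 0.0401), and their summed FPKM was 48.8 to 70.3 in EAE mice and 51.4 to 69.3 in the controls. Of 12 astrocyte markers, Gfap was called higher and Slc4a4 and Fgfr3 lower, with the sums given above. Of these 12, 11 had a log2FC below 0 and 1 above, with a median of −0.22. In the edgeR test 10 of them had an unadjusted p under 0.05, beside 17.4% of all mRNAs. Of 15 neuron markers 5 were lower, and 4 of 14 neutrophil markers and 2 of 19 microglia markers were higher. None of 10 smooth muscle, 12 oligodendrocyte, 10 fibroblast, 8 red blood cell or 10 monocyte markers was called, and 1 of 12 choroid plexus markers, Ttr, was lower. Their part in the values of the 10 genes was not tested.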

How the data were processed

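The libraries, labelled as microglia of 8 EAE and 8 PBS-treated mice, were sequenced as stranded total RNA depleted of ribosomal RNA. Per the labels and the study's methods, the authors aligned reads to GRCm38 with HISAT2 2.1.0 and counted them with HTSeq 0.11.2, whose strand setting is not given in the sources used here. The deposited counts are raw counts per mRNA, and the deposited FPKM values were computed by the authors from the same counts: in 7749 mRNAs checked, FPKM was the count divided by the library's total and by 1 constant per mRNA. An EAE library held 24587443 to 30244215 counts and a PBS library 26031889 to 34184576.

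Counts were tested with edgeR 4.0.16 in R 4.3.3 (quasi-likelihood test, TMM scaling, a minimum of 16 counts summed over libraries), with p-values adjusted by the Benjamini-Hochberg method over 17885 mRNAs and a call at an adjusted p under 0.05. The study's rule adds a |log2FC| over 1, which 0 of the 10 genes and 0.117% of mRNAs met. Levels between genes were compared in FPKM, and correlations in log2 CPM centred within groups, with 100000 permutations within groups. DESeq2 1.42.0 and limma 3.58.1 (log2 of FPKM plus 0.1 or 1), other scalings, filters and library sets, and leaving out each library were alternatives. On simulated counts with 200 genes changed by a log2FC of 0.5, 84% were recovered, and all with a log2FC of 1. The changed genes were well counted, and their simulated spread was set alike for all and not fitted to these data. The SE of the 10 genes reached 0.20 (Cldn5), so these shares do not apply to them. P-values of the main edgeR test set the difference between the groups against the spread between mice within the groups. That test treats the libraries of a group as equally alike, which they were not, as described above.

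The 10 genes and all lists were chosen with earlier results of these data known. Named from the lists were all called genes, or the 2 with the smallest p where there was none, besides the paralogs Abcb1b, Flt4, Tie1 and Cldn3 and the 10 mRNAs most alike. Positions are from GENCODE on GRCm38.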

Additional observations from a re-analysis of the deposited data

Results flagged for a closer look

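Of the 20 groups of 8 FPKM values, 10 genes in each of EAE and PBS, 2 had a library set apart by Dixon's test, in which chance alone flags about 1 in 20 groups. Kdr was at 2.64 FPKM in PBS 8, where the gap to the next PBS library was 0.619 of the group's range. Tek was at 3.08 FPKM in PBS 4, where the gap was 0.542 of the range. Without PBS 8 the log2FC of Kdr was 0.37, and without PBS 4 that of Tek was 0.20, neither called (edgeR adjusted p = 0.271 and 0.237).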

How the results depend on the processing

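Over the 11 fits that kept all 16 libraries, each of the 10 genes kept the sign of its log2FC. The count of genes called lower was 0 and became 1, Mfsd2a, with DESeq2, edgeR's exact test, the replicate block and the library set term, and 6 within the 6 libraries most alike. Leaving out 1 library it was 0 to 1, with 1 without EAE 4 or EAE 5. Genes called higher or past a |log2FC| of 1 numbered 0 in every setting. Within the 6 libraries most alike the log2FC changed sign for Cldn5 (−0.41), Ocln (−0.028), Cdh5 (−0.13), Kdr (−0.38) and Tek (−0.052), and within the other 10 for Pecam1 (0.076), Abcb1a (0.034) and Flt1 (0.0072). The cause was not tested, and each set holds fewer samples.

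The labels do not state that replicate numbers pair the samples. Same-numbered libraries deviated together at r −0.22 to 0.56, over 0.1 in 3 of 8 pairs. Of 8 EAE libraries, 2 correlated best with their own number. These values do not settle whether the numbers carry a pairing. With the replicate block the adjusted p of Mfsd2a was 0.0489, and 150 mRNAs were called higher and 367 lower, against 118 and 315. DESeq2 called 297 and 602, and edgeR's exact test 260 and 485. Library totals without scaling called 226 and 103, and limma on log2(FPKM + 0.1) 132 and 73. Of the 112 related genes, 32 were called lower and 7 higher within the 6 libraries most alike, where 13.1% and 11% of mRNAs were. In the other settings 0 to 6 were called lower. The 6 came without EAE 4, in a fit that called 4.57% of mRNAs lower. The SE of the 10 genes did not follow their counts: it was 0.07 for Abcb1a, at 435 to 731 counts per library, and 0.20 for Cldn5, at 348 to 1108.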

Other observations

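The mRNAs that varied most like Mfsd2a alone differed from those most like the mean of the 10 genes, and were chosen after their values were seen. Over the 16 libraries, with each gene centred within its group, the closest of 14758 mRNAs were Tekt4 (r = 0.94), Amot (0.92), Kcnj16 (0.91), Arrdc2 (0.90), Tmem229a (0.90), Eva1a (0.89), Daam2 (0.89), Aldh1a1 (0.89), Ndufa7 (0.89) and Msmo1 (0.88). Kcnj16 encodes an inward rectifier potassium channel subunit and Msmo1 an enzyme of cholesterol synthesis. All 10 had a log2FC below 0, from −0.45 for Tekt4 to −0.17 for Msmo1. Amot, which encodes angiomotin, had a log2FC of −0.29 and an adjusted p of 0.0283 in edgeR's quasi-likelihood test, and the other 9 were not called.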
